A study of Mus musculus with 6 samples.

Results

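The lymphoid chemokines and lymphotoxins are 10 genes, taken by symbol as ligands and receptors known to organize lymphoid tissue. They are the 6 ligand genes *Cxcl13*, *Ccl19*, *Ccl21a*, *Cxcl12*, *Lta*, and *Ltb* and the 4 receptor genes *Cxcr5*, *Ccr7*, *Cxcr4*, and *Ltbr*. Of the 48440 gene rows counted by RNA sequencing, each of the 10 had one, and all 10 were among the 18593 genes with enough reads to test. Dorsal root ganglia (DRGs) of male mice labelled WT were compared in 2 groups of 3 libraries. DRGs of one side had received a microinjection of adeno-associated virus serotype AAV5. The virus carried green fluorescent protein in the control group (AAV5-*Gfp*), and in the other group 2 viruses together carried the variants *V1* and *V2* of the long noncoding RNA *NIS-lncRNA* (AAV5-*V1+V2*). The deposited text places the tissue collection at 5 weeks and the profiling at 4 weeks after microinjection, for both groups. The study's text names CD1 mice for its injections of either virus alone, and the strain of the sequenced mice is not stated separately. Age, the promoter in the virus, and whether a library pooled animals are not given in the sources used here. Both groups were injected, each with its own virus preparation, so the transcripts and the preparation cannot be told apart. Libraries held 32025612 to 34764282 counted reads. Values of single libraries are given in the order of replicates 1, 2, and 3. Nothing in the labels says that replicates came from separate animals, so p-values measure the spread between these libraries only.

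CXCL13 is the chemokine of B cell follicles and attracts cells that carry the receptor CXCR5. CCL19 and CCL21 draw T cells and mature dendritic cells with CCR7 into the T cell zone, and CCL21 is also made by lymphatic endothelium. CXCL12 acts through CXCR4 in many tissues and holds leukocytes in bone marrow and lymph nodes. Lymphotoxin α and β form a membrane trimer on lymphocytes that binds the lymphotoxin β receptor on stromal cells, where the noncanonical NF-κB pathway (NIK, RelB, and p52) turns on chemokines such as CXCL13. In chronically inflamed tissue this loop is known to build follicle-like lymphocyte aggregates.

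The 250 bases before the transcription start were read from RefSeq (GRCm38.p6) for the 8 members with an entry; *Cxcr5* and *Ccr7* had no entry. The *Cxcl13* promoter is shown because this gene had the highest fold change of the members and because lymphotoxin signalling is known to act on it. It lies at chr5:95956689-95956938 on the plus strand. Capitals mark GGGAGATTT, the core of a κB element known to prefer RelB with p52, and the letters TATAAA.

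*Cxcl13*: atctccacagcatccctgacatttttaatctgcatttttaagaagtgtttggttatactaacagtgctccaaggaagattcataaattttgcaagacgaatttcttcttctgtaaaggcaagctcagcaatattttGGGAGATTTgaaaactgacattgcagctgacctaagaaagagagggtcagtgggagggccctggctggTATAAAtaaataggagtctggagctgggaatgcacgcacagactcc

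The κB core sits at bases -114 to -106 from the start and the TATA letters at -46 to -41. On either strand, GGGAGATTT was held by 93 of 32851 promoters of this length (0.283%). The core was looked for after the *Cxcl13* promoter had been read, and none of the other 7 members held it. The letters TATAAA were found in 12.4% of the promoters. The broader pattern GGGNNNNTCC, searched on both strands as a canonical κB form, was in 16.5% of all promoters, and among the members in that of *Ltb*. It lies on the minus strand at bases -87 to -78, within the 250 bases at chr17:35194257-35194506, and capitals mark it in the plus-strand letters.

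*Ltb*: aagggtgttcGGAAAGTCCCcgggcagggg

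Such matches describe letters in these windows, and binding was not measured.

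Of the 10 members, 8 were higher in AAV5-*V1+V2* than in AAV5-*Gfp* DRGs and 0 were lower, at an adjusted p under 0.05 (edgeR quasi-likelihood test, Benjamini-Hochberg over all genes tested). Of all genes tested, 10.1% were higher and 5.27% were lower. The members above the threshold were 5 of 6 ligands and 3 of 4 receptors, and the exceptions were *Ccl21a* and *Ltbr*. Of the 10, 6 reached the filter's minimum of 0.306 CPM in all 3 control libraries, and 4 of these 6 were higher. The other 4, *Cxcl13*, *Ccl19*, *Ccr7*, and *Lta*, passed the filter only through the AAV5-*V1+V2* libraries, where they were high, so their part of the count is no independent support. Without a filter on low counts 8 members were higher as well, but this fit uses the same counts and adds no independent support for those 4. The median log2 fold change was 3.24 over the 10 members, with those 4 included, and -0.0003 over all genes tested. Of the 6 that reached the minimum in every control, *Ccl21a* had 0.25, *Ltbr* 0.45, *Cxcl12* 0.91, and *Cxcr4* 0.95. Of the same 6, *Cxcr5* had 3.39 and *Ltb* 3.50. No member was lower at an unadjusted p under 0.05 either, and none was lower by DESeq2 or limma-voom. For 9 of the 10, among them the 4 that passed the filter only through AAV5-*V1+V2*, the lowest AAV5-*V1+V2* library exceeded the highest control library. The same held for 23.4% of all genes tested. The fold changes fell into 3 ranges, with *Cxcl13* alone above 5 on the log2 scale, 5 genes between 3.08 and 3.62, and the other 4 under 1.

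**Figure D1:**
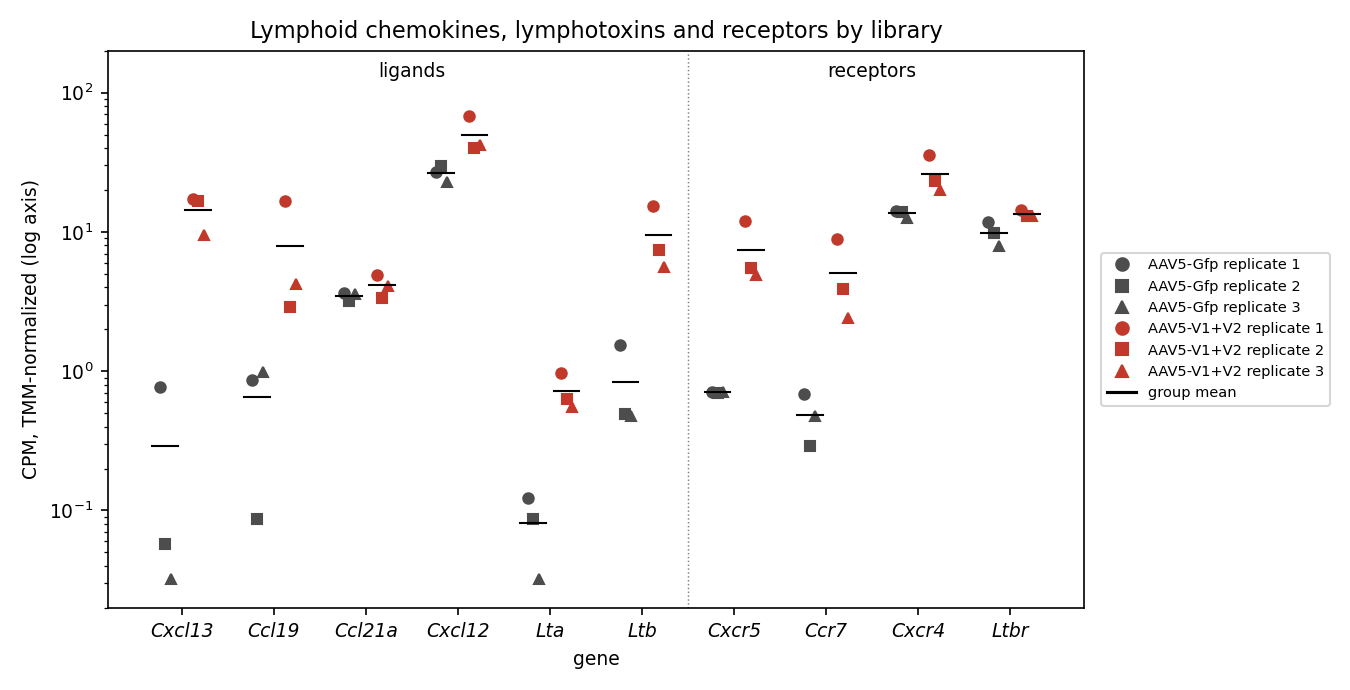
Points give the level of each member in each library as TMM-normalized CPM (log axis), with AAV5-Gfp in grey, AAV5-V1+V2 in red, a marker shape per replicate, and a line at each group mean (n = 3). The groups are apart for every gene but Ccl21a, and AAV5-V1+V2 replicate 1 is the highest library for all 10 genes.

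*Cxcl13* (ENSMUSG00000023078.6) has 4 exons and spans 95956951 to 95961068 on the plus strand of chromosome 5 (GRCm38, as for all positions here). The control libraries had 25, 2, and 1 *Cxcl13* counts, against 568, 555, and 324 with AAV5-*V1+V2*. The groups did not overlap, and AAV5-*Gfp* replicate 1 held nearly all reads of its group. The mean level was 0.288 ± 0.421 CPM (counts scaled to a common library size) in controls and 14.5 ± 4.35 CPM with AAV5-*V1+V2* (SD, n = 3 each). It had a log2 fold change of 5.64 (SE, the standard error, 0.71, 95% confidence interval 3.97 to 7.31, adjusted p = 0.0139), which placed it at rank 61 of the 18593 genes. Without AAV5-*Gfp* replicate 1 the log2 fold change was 8.20, since 3 reads were then left in the control group. By counting error alone, the 28 and 1447 reads of the groups gave a ratio of 52.5 per total count (95% interval 36.2 to 79.3).

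*Cxcr5* (ENSMUSG00000047880.15), the receptor of CXCL13 on B cells and follicular helper T cells, lies on chromosome 9 from 44511787 to 44561877 on the minus strand. Its counts were 23, 24, and 22 in AAV5-*Gfp* and 394, 182, and 167 in AAV5-*V1+V2*. The control libraries were nearly equal, and the lowest AAV5-*V1+V2* library was 6.83 times the highest control in CPM. The log2 fold change was 3.39 (SE 0.39, 95% confidence interval 2.47 to 4.32, adjusted p = 0.0139). Its exons share 110 bases with *Bcl9l* on the opposite strand, whose log2 fold change was 0.12 (adjusted p = 0.436). The use of strand in counting is not stated. Each AAV5-*V1+V2* library held this receptor and its ligand above every control, with 1.44, 3.05, and 1.94 *Cxcl13* reads per *Cxcr5* read in AAV5-*V1+V2*.

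Of the CCR7 ligand genes, *Ccl19* was higher and *Ccl21a* did not pass, and the difference between them was not tested. *Ccl19* (chromosome 4, 42754525 to 42756577, minus strand, ENSMUSG00000071005.7) had 28, 3, and 31 counts in AAV5-*Gfp* and 546, 96, and 145 in AAV5-*V1+V2*. Every AAV5-*V1+V2* library was higher, but replicate 1 was 5.75 times replicate 2, the widest spread of any member in that group. *Ccl19* had a log2 fold change of 3.62 (SE 0.88, 95% confidence interval 1.55 to 5.68, adjusted p = 0.0372) and 2.47 without AAV5-*V1+V2* replicate 1. In limma-voom the adjusted p was 0.0805.

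*Ccl21a* (chromosome 4, 42772860 to 42773993, minus strand, ENSMUSG00000094686.1) had 118, 111, and 111 counts in AAV5-*Gfp* and 162, 112, and 141 in AAV5-*V1+V2*. The groups overlapped, with levels of 3.47 ± 0.238 CPM and 4.13 ± 0.780 CPM (SD, n = 3 each). The log2 fold change of 0.25 did not pass (SE 0.17, adjusted p = 0.338), and its 95% confidence interval of -0.15 to 0.66 holds no change of 1 or more. In reads, *Ccl19* was at 0.237, 0.0270, and 0.279 of *Ccl21a* in AAV5-*Gfp*, and at 3.37, 0.857, and 1.03 of it in AAV5-*V1+V2*. The ratio was thus higher in each AAV5-*V1+V2* library than in any control.

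Both CCR7 ligand genes belong to a cluster with near-identical copies, so their counts are uncertain where reads could be split. Of the 50-base stretches of their transcripts, 52% for *Ccl19* and 71.6% for *Ccl21a* also occur in another gene of GENCODE M21, and each has a further entry on an unplaced scaffold. The copies of *Ccl21a* with a row were counted little. *Gm21541* had 2 to 20 reads per library and a log2 fold change of -0.40 (adjusted p = 0.674), and *Ccl21b*, *Gm10591*, and *Gm13304* had at most 4 reads per library. Summed with their copies, a choice made after the data were seen, *Ccl19* had a log2 fold change of 3.56 and *Ccl21a* of 0.19. Both genes also lie within *4930578G10Rik* on the opposite strand, which had a log2 fold change of -0.29 (adjusted p = 0.0630).

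*Ccr7* (chromosome 11, 99144196 to 99155077, minus strand, ENSMUSG00000037944.8), the shared receptor of both, had 22, 10, and 15 counts in AAV5-*Gfp* and 295, 129, and 83 in AAV5-*V1+V2*. The groups did not overlap. The log2 fold change was 3.39 (SE 0.56, 95% confidence interval 2.07 to 4.71, adjusted p = 0.0165), and it was 2.70 without AAV5-*V1+V2* replicate 1.

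*Cxcl12* and *Cxcr4* both rose, with fold changes under 1 on the log2 scale. *Cxcl12* (chromosome 6, 117168535 to 117181367, plus strand, ENSMUSG00000061353.11) had 868, 1033, and 710 counts in AAV5-*Gfp* and 2223, 1333, and 1434 in AAV5-*V1+V2*. The lowest AAV5-*V1+V2* library was 1.34 times the highest control in CPM. Its log2 fold change was 0.91 (SE 0.21, adjusted p = 0.0328).

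*Cxcr4* (chromosome 1, 128588199 to 128592293, minus strand, ENSMUSG00000045382.6) had 457, 481, and 396 counts in AAV5-*Gfp* and 1173, 767, and 689 in AAV5-*V1+V2*. The control libraries were close together, and all 3 AAV5-*V1+V2* libraries were above them. For *Cxcr4* the log2 fold change was 0.95 (SE 0.21, adjusted p = 0.0278). *Ackr3*, which encodes the scavenging receptor for CXCL12, had a log2 fold change of 0.28 and did not pass (adjusted p = 0.155), and it was singled out after its values were seen.

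The lymphotoxin ligands rose, and their receptor did not pass. *Ltb* (chromosome 17, 35194439 to 35196320, plus strand, ENSMUSG00000024399.5) had 50, 17, and 15 counts in AAV5-*Gfp* and 507, 249, and 192 in AAV5-*V1+V2*. For *Ltb* the log2 fold change was 3.50 (SE 0.56, adjusted p = 0.0156), and 4.28 without AAV5-*Gfp* replicate 1, the control with the most reads.

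*Lta* (chromosome 17, 35203165 to 35205351, minus strand, ENSMUSG00000024402.5), a neighbour of *Ltb*, was the lowest member per length in both groups and had 4, 3, and 1 counts in AAV5-*Gfp* and 32, 21, and 19 in AAV5-*V1+V2*. The groups did not overlap, and the log2 fold change was 3.08 (SE 0.47, adjusted p = 0.0144). No control library reached the filter's minimum for *Lta*. Without the filter its log2 fold change was 3.08 (edgeR, adjusted p = 0.00414), from the same counts, which is no independent support. Counting error alone, on 8 and 72 reads, gave a ratio of 9.14 per total count with a 95% interval of 4.40 to 22.0. Per length, the mean level in AAV5-*V1+V2* was 0.520 CPM per kilobase for *Lta* and 6.26 for *Ltb*.

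*Ltbr* (chromosome 6, 125306571 to 125313885, minus strand, ENSMUSG00000030339.7) had 380, 343, and 247 counts in AAV5-*Gfp* and 473, 433, and 443 in AAV5-*V1+V2*. No AAV5-*V1+V2* library was below a control, and the lowest was 1.10 times the highest control in CPM. The log2 fold change of 0.45 did not pass (SE 0.15, 95% confidence interval 0.10 to 0.80, adjusted p = 0.0835). DESeq2 gave an adjusted p of 0.0497.

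**Figure D2:**
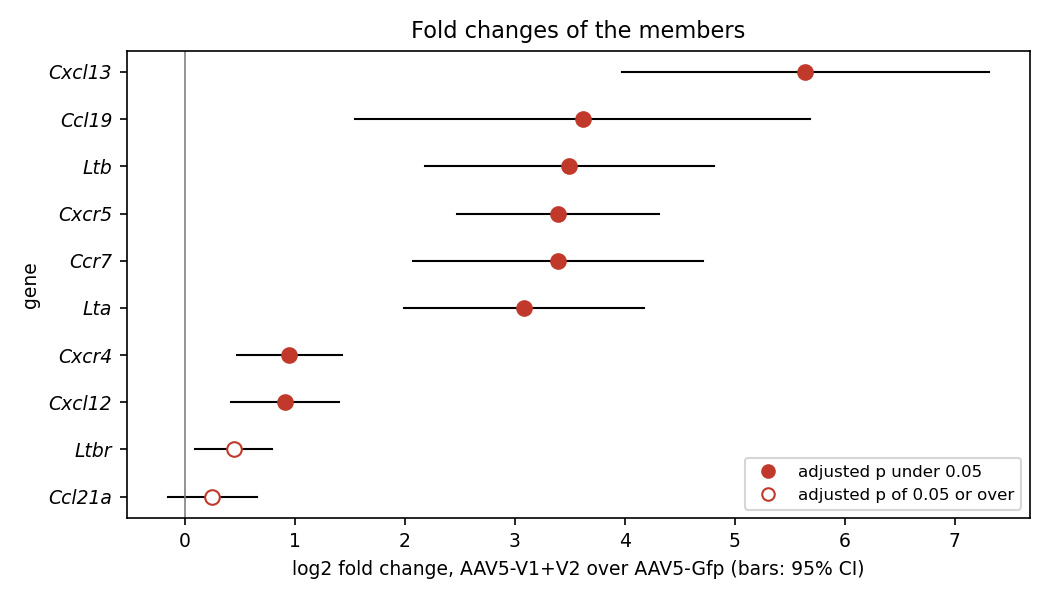
Points give each member's log2 fold change, AAV5-V1+V2 over AAV5-Gfp (n = 3 each), and bars its 95% confidence interval, and filled points had an adjusted p under 0.05. Cxcl13 is highest at 5.64, a group from Lta to Ccl19 lies between 3.08 and 3.62, and Cxcr4, Cxcl12, Ltbr, and Ccl21a lie under 1.

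The number of members called depended on the control libraries. Without AAV5-*Gfp* replicate 2, 0 of the 10 passed (edgeR, with 8 at an unadjusted p under 0.05), and 12 genes were higher in that fit, which is 0.0634% of those tested. Without AAV5-*Gfp* replicate 3, 0 passed as well (9 at an unadjusted p under 0.05), and 15 genes were higher in all (0.0792%). Without AAV5-*Gfp* replicate 1, the number was 4, and *Ccl19* (adjusted p = 0.0966), *Cxcl12* (0.0910), *Ccr7* (0.0515), and *Cxcr4* (0.0773) no longer passed. Without AAV5-*V1+V2* replicate 1, 2, or 3 it was 8, 7, and 8, with *Cxcr4* lost without replicate 2 (adjusted p = 0.0520). Leaving out any of the 6 libraries changed the direction of none of the 10. For a single gene, an exact permutation test of 3 libraries against 3 cannot give a p under 0.1.

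Compared per length (mean CPM per kilobase of annotated exons), the order of the members differed between the groups. In AAV5-*Gfp* DRGs *Cxcr4* was highest at 7.51 ± 0.432 CPM per kilobase (SD, n = 3), followed by *Ltbr* at 4.19 ± 0.820, *Ccl21a* at 3.99 ± 0.274, and *Cxcl12* at 3.24 ± 0.434. *Ltbr* and *Ccl21a* were within their spread. The other 6 genes were under 1 CPM per kilobase, and *Ccl19*, *Ltb*, *Cxcl13*, *Ccr7*, and *Cxcr5* could not be ordered beyond their spread. In AAV5-*V1+V2* DRGs *Cxcr4* was at 14.5 ± 4.57 CPM per kilobase and *Cxcl13* at 12.6 ± 3.79, which did not differ beyond their spread. *Ccl19* followed at 9.11 ± 8.72, *Ltb* at 6.26 ± 3.43, *Cxcl12* at 6.09 ± 1.88, *Ltbr* at 5.71 ± 0.348, and *Ccl21a* at 4.75 ± 0.896 CPM per kilobase. The *Cxcl12* exons, 8176 bases together over 4 transcripts, include long isoforms, so that its level per length may be understated. *Cxcl13* went from 0.510% to 10.4% of the summed CPM of the 10 genes.

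Markers of lymphocytes, cells known to carry several of these receptors and lymphotoxins, were also detected. Which cells the members' reads came from was not measured. All 10 B cell markers and 9 of 10 T cell markers were higher in AAV5-*V1+V2*, with medians of 3.16 and 3.29 in log2 fold change. The B cell surface gene *Ms4a1* had a log2 fold change of 5.49, *Cd79b* of the B cell receptor 3.24, and the T cell costimulatory receptor gene *Cd28* 3.26. Summed over the markers, B cell genes were at 21.2 to 34.0 CPM in AAV5-*Gfp* and 156 to 418 CPM in AAV5-*V1+V2*, and T cell genes at 5.19 to 13.1 and 50.3 to 106 CPM. In these bulk samples, more cells of a type and more RNA per cell cannot be told apart. The highest library of each sum was AAV5-*V1+V2* replicate 1, as for the members.

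Set against summed markers, *Cxcr5*, *Ccr7*, and the lymphotoxins overlapped between the groups, whereas *Cxcl13* and *Cxcl12* did not. In CPM itself, 23.4% of all genes tested were higher without overlap, and such a share was not counted for ratios. *Cxcr5* CPM was 2.10%, 3.06%, and 3.32% of the summed B cell markers in AAV5-*Gfp* and 2.87%, 3.04%, and 3.11% in AAV5-*V1+V2*. *Ccr7* was at 6.23% ± 1.49 of the summed T cell markers in AAV5-*Gfp* and 6.60% ± 1.82 in AAV5-*V1+V2* (SD, n = 3 each). *Ltb* was at 9.73% ± 1.96 and 12.7% ± 1.70 of the T cell sum, and *Lta* at 1.05% ± 0.576 and 1.03% ± 0.0974. For each of these 4 ratios the libraries of the groups overlapped.

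*Cxcl13* was at 2.28%, 0.255%, and 0.151% of the summed B cell markers in AAV5-*Gfp*, and at 4.13%, 9.26%, and 6.04% in AAV5-*V1+V2*. Against the summed macrophage markers it was at 0.452%, 0.0345%, and 0.0252%, and at 3.68%, 4.71%, and 3.60%. In both, the groups did not overlap, and the AAV5-*V1+V2* means were 7.23 and 23.4 times those of AAV5-*Gfp*. Without AAV5-*Gfp* replicate 1 these became 31.9 and 134 times. The control ratios of *Cxcl13* rest on 25, 2, and 1 reads, and the gene passed the filter only through AAV5-*V1+V2*. *Ccl19* against the T cell sum overlapped between groups (8.23% ± 7.50 and 9.63% ± 5.49). *Cxcl12* was at 12.7%, 15.5%, and 11.3% of the summed blood endothelial markers in AAV5-*Gfp* and at 27.6%, 19.5%, and 19.6% in AAV5-*V1+V2*. These groups did not overlap, and the mean was 1.69 times that of AAV5-*Gfp*. These ratios are descriptions, without a test.

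**Figure D3:**
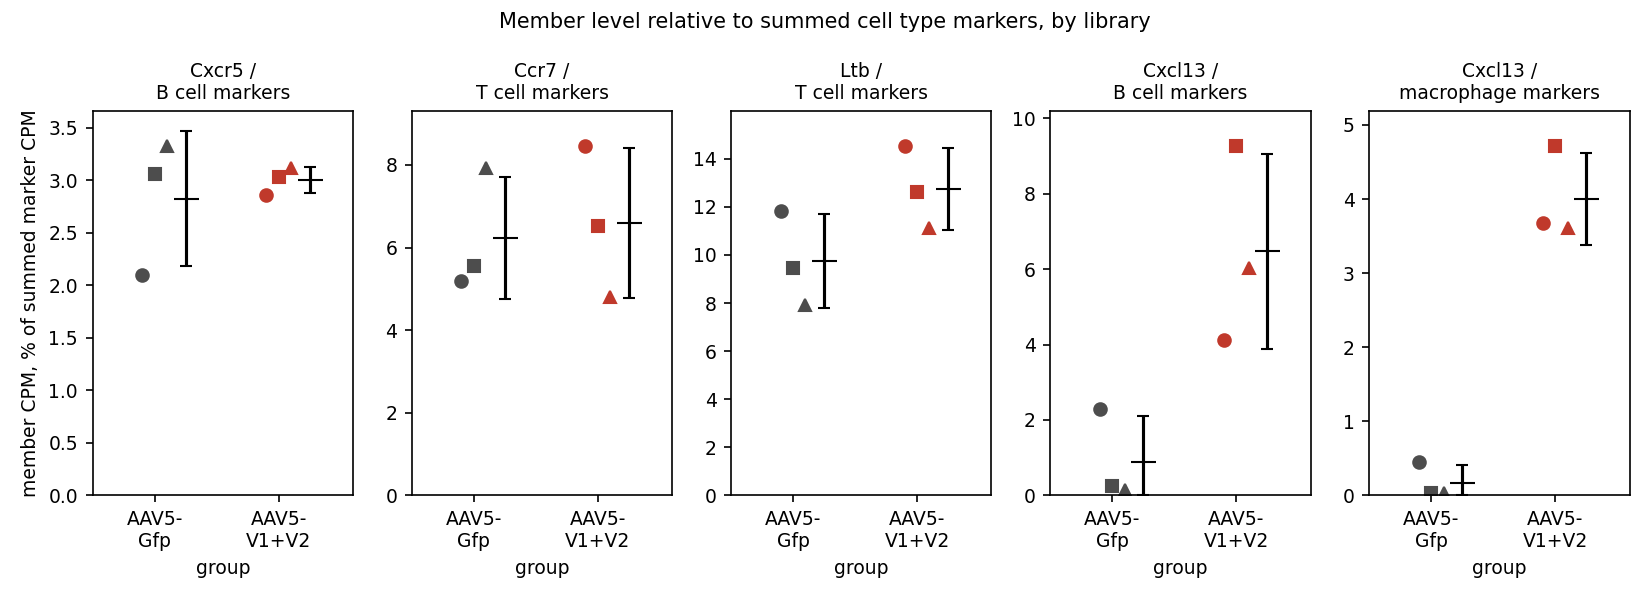
Each panel gives the CPM of a member as a percent of the summed CPM of a cell type's markers, per library (circle, square, and triangle for replicates 1, 2, and 3), with the group mean ± SD (n = 3, cut at 0) beside the points. Cxcr5, Ccr7, and Ltb overlap between the groups, whereas Cxcl13 is apart from control against both B cell and macrophage markers. The Cxcl13 ratios of AAV5-Gfp rest on 25, 2, and 1 reads.

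Genes of the lymphotoxin and noncanonical NF-κB pathway rose with the members. Of 20 tested, 17 were higher and 0 were lower, by edgeR, with 0 lower at an unadjusted p under 0.05 and a median log2 fold change of 1.35. Of all genes tested, 10.1% were higher and 5.27% were lower. The ligand gene *Tnf* had 12, 9, and 11 counts in AAV5-*Gfp* and 150, 66, and 57 in AAV5-*V1+V2* (log2 fold change 3.05, adjusted p = 0.0144). *Tnfrsf13c*, the BAFF receptor gene of B cells, had a log2 fold change of 3.31 (adjusted p = 0.0139). *Traf3*, whose product holds the pathway off by directing NIK degradation, had 0.52 (adjusted p = 0.0487). *Chuk*, which encodes IKKα, had 0.12 and did not pass (adjusted p = 0.301). *Relb* (1.20) and *Nfkb2* (1.68), which encode RelB and the p52 precursor, passed, whereas *Map3k14*, which encodes NIK, had 0.61 and did not (adjusted p = 0.0732). These last 3 were chosen after their values were seen. The list includes genes of B cells such as *Tnfrsf13c*, and the B cell markers rose as well (median 3.16). It does not separate pathway activity from cell content, and pathway activity was not measured.

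Markers of the compartments of lymphoid tissue were counted list by list, and no test compared the lists with each other. Over the 169 list genes tested beside the members, 90 were higher and 1 lower by edgeR. At an unadjusted p under 0.05 the lower number was 12, among them *Clu*, *Thy1*, and *Cd34*, and it was 7 by DESeq2 and 1 by limma-voom. Without AAV5-*Gfp* replicate 2 or replicate 3, the higher number fell to 1 in each case, and it was 45 without replicate 1. Of 9 germinal centre B cell markers tested, 6 were higher and 0 lower (median log2 fold change 0.88). *Gcsam*, a gene of germinal centre B cells, had a log2 fold change of 2.19 (adjusted p = 0.0144). *Bcl6* (0.18, adjusted p = 0.343) and *Bach2* (0.26, adjusted p = 0.327), transcription factor genes that neurons and other cells also use, did not pass.

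Follicular helper T cell markers were higher for 7 of 10 and lower for 0 (median 3.05). The median of the T cell markers was 3.29, and this list does not separate follicular helper cells from other T cells. *Btla*, an inhibitory receptor gene shared with B cells, had a log2 fold change of 3.06 (adjusted p = 0.0139), and *Pdcd1*, which encodes PD-1, had 3.71 (adjusted p = 0.0144). *Maf* (0.02, adjusted p = 0.902) and *Cd200* (-0.05, adjusted p = 0.679), which were abundant in the control DRGs, did not pass. Plasma cell markers were higher for 7 of 8, among them *Jchain* with 36 to 125 counts in AAV5-*Gfp* and 5792 to 6375 in AAV5-*V1+V2*.

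Of 12 follicular dendritic cell markers, 6 were higher and 0 lower (median 1.75). *Cr2*, the complement receptor gene of follicular dendritic cells and B cells, had 197, 191, and 155 counts in AAV5-*Gfp* and 1159, 608, and 723 in AAV5-*V1+V2* (log2 fold change 2.17, adjusted p = 0.0139). *Vcam1*, an adhesion molecule gene also used by inflamed endothelium, had 2.03 (adjusted p = 0.0139). *Cr1l* (0.28, adjusted p = 0.0731) and *Clu* (-0.24, adjusted p = 0.130), both widely expressed, did not pass. The members that rose are in part B cell or macrophage genes, and the list does not separate those cells from follicular dendritic cells.

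Fibroblastic reticular cells, the stroma of the T cell zone, were represented by 12 markers, of which 2 were higher and 0 lower (median 0.11). These were *Cxcl16* (2.19, adjusted p = 0.0144) and *Tnfsf13b* (0.87, adjusted p = 0.0495), a chemokine and a cytokine gene that myeloid cells also express. *Thy1* (-0.35, adjusted p = 0.0731), abundant in neurons, and the receptor gene *Pdgfrb* (0.06, adjusted p = 0.598) did not pass. The summed CPM was 330 to 345 in AAV5-*Gfp* and 336 to 360 in AAV5-*V1+V2*. *Thy1* was the largest part of this sum, at 169, 157, and 183 CPM in AAV5-*Gfp* and 115, 136, and 150 CPM in AAV5-*V1+V2*. The similar sums therefore do not show that the other markers kept their level. Of the 12 markers, 4 were higher in AAV5-*V1+V2* without overlap between the groups, as were 23.4% of all genes tested. *Thy1* was lower without overlap, and the share of all genes doing so was not counted. These numbers do not set the list apart from other genes.

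High endothelial venules admit lymphocytes from blood into lymph nodes. Of 11 markers tested, 3 were higher and 0 lower (median 0.54). *Glycam1*, a mucin gene of these venules, had 14, 10, and 9 counts in AAV5-*Gfp* and 47, 47, and 38 in AAV5-*V1+V2* (log2 fold change 1.95, adjusted p = 0.0144), and the glycosyltransferase gene *Gcnt1* had 1.09 (adjusted p = 0.0193). *Cd34* (-0.23, adjusted p = 0.0673) and *Enpp2* (0.24, adjusted p = 0.281), with the highest CPM of the list, did not pass. *Chst4*, the sulfotransferase gene of these venules, had 1 to 3 counts in each of the 6 libraries and was not tested. It was singled out after its values were seen, as was *Foxc2* among the lymphatic markers.

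Lymphatic endothelium, a source of CCL21, was covered by 8 markers tested, of which 1 was higher (*Stab2*, 1.06, adjusted p = 0.0371) and 0 lower (median 0.14). Its summed CPM was 300.2 to 339 in AAV5-*Gfp* and 293 to 300.1 in AAV5-*V1+V2*, mostly from *Reln* (-0.17, adjusted p = 0.159), which DRG cells other than lymphatics may also express. *Foxc2*, a gene of lymphatic valves, was at 0 in all libraries, which allows up to 3 reads in each. *Ccl21a* was at 1.08% ± 0.124 of this sum in AAV5-*Gfp* and 1.40% ± 0.245 in AAV5-*V1+V2* (SD, n = 3 each), and the groups overlapped. Of 8 markers of blood endothelium, *Pecam1*, which leukocytes also express, was higher (0.88, adjusted p = 0.0269), and the median was 0.02.

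**Figure D4:**
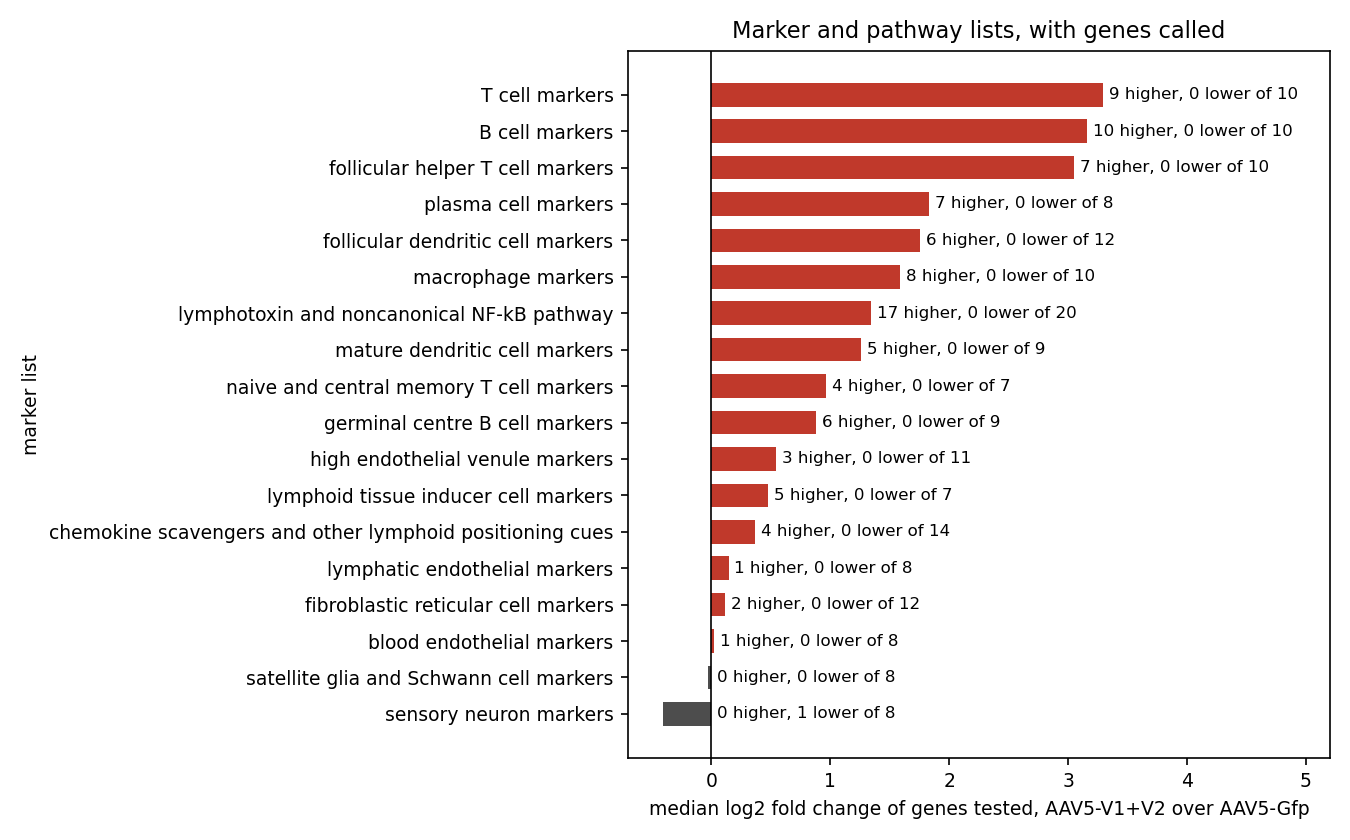
Bars give the median log2 fold change (AAV5-V1+V2 over AAV5-Gfp) of the tested genes of each marker or pathway list, with the number of genes higher and lower at an adjusted p under 0.05. T cell, B cell, and follicular helper T cell lists have medians over 3, whereas lymphatic, fibroblastic reticular, and blood endothelial lists have medians under 0.2.

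Sensory neuron and glial markers, which define the labelled tissue, were abundant in all 6 libraries, with summed CPM of 2923 to 5036 and 3664 to 4341. The neuron sum was 4717 to 5036 CPM in AAV5-*Gfp* and 2923, 4190, and 4217 CPM in AAV5-*V1+V2*, lowest in the library where all 10 members were highest. Of 8 neuron markers, *Rbfox3* was lower (log2 fold change -0.93, adjusted p = 0.0256) and the other 7 did not pass. For 6 of the 8, every AAV5-*V1+V2* library was below every control. The share of all genes doing so was not counted, so this number has no background and nothing is drawn from it. The median log2 fold change of the 8 was -0.41, against -0.0003 over all genes tested. The part of this difference in neuron markers in the members' levels was not tested.

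By Pearson's correlation in log2 CPM over the 6 libraries, the genes most like *Cxcl13* were *4931414P19Rik* (0.997), *U2af2* (0.996), *Cdkn1b* (0.995), *Ighv1-81* (0.995), and *Kcnn4* (0.994). The 6 libraries form 2 groups, and 1367 of the 18592 other genes had a correlation over 0.9, so this order is a description only.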

How the data were processed

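Total RNA libraries were prepared with a stranded kit from 3 AAV5-*Gfp* and 3 AAV5-*V1+V2* DRG samples. The deposited file holds the authors' unnormalized read count for every gene symbol in each library, on GRCm38 (mm10) per the labels. The aligner, the counting program, the annotation, and the handling of strand and of reads with several positions are not given in the sources used here. No pair of libraries within a group agreed within sampling noise (chi-square per degree of freedom 8.27 to 48.9).

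Counts were filtered with filterByExpr, TMM-normalized, and tested across all 18593 genes in R 4.3.3 with edgeR 4.0.16 (glmQLFit, glmQLFTest) without a covariate, at a Benjamini-Hochberg adjusted p under 0.05. Standard errors are the coefficient over the square root of F. CPM are relative to TMM library sizes. The calculations were tested on simulated data with known changes. Positions and exon lengths come from GENCODE M21. Intervals from counts cover counting error only.

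The members and the marker lists were chosen with earlier results of these data known. Named genes are all members and, per list, the 2 with the smallest adjusted p and the 2 with the highest level, besides those noted. Some genes that this rule names are not reported here. Alternatives were other normalizations (RLE, upper quartile, total counts), filters, DESeq2 1.42.0, limma-voom (limma 3.58.1), robust edgeR, a replicate block, thresholds, and leaving out each library.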

Additional observations from a re-analysis of the deposited data

How the results depend on the processing

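The number of members higher was 7 to 9 in all alternatives that kept the 6 libraries, against 8, and 0 to 8 across those leaving out one replicate each, while 0 members were lower in any (edgeR, DESeq2, and limma-voom, also at an unadjusted p under 0.05). The stricter filter dropped *Lta*, by construction. All genes higher ranged from 12 to 2474 and all genes lower from 0 to 1446 when one replicate was left out, against 1872 and 980. List genes higher ranged from 1 to 98 and list genes lower from 0 to 5, against 90 and 1. At an unadjusted p under 0.05, 3577 genes were higher and 2878 lower, and 12 list genes were lower. At an adjusted p under 0.1 the numbers were 2898, 2030, and 8. DESeq2 gave 1606 lower genes and 7 lower list genes, and without a filter 2 list genes were lower. For thresholds this follows by construction, and otherwise the cause was not tested. With total counts only, 74.6% of calls were higher, against 65.6%. Deviations from the group mean had correlations of 0.0360, 0.0658, and 0.1065 between equal replicate numbers. Between unequal numbers they were -0.104 to 0.043. Whether equal numbers share more than a number was not tested. With the replicate block, 9 members were higher, *Ltbr* with an adjusted p of 0.0462, and 6 list genes were lower. Low control counts limit *Lta* (1 to 4 reads in each AAV5-*Gfp* library) and *Cxcl13* (2 and 1 reads in replicates 2 and 3).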

Other observations

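Of 14 chemokine scavengers and other positioning cues tested, 4 were higher and 0 lower (median log2 fold change 0.36). *Il7r*, the interleukin 7 receptor gene of lymphocytes, had a log2 fold change of 2.56 (adjusted p = 0.0139), and *S1pr2*, which confines germinal centre B cells, had 0.88 (adjusted p = 0.0204). *Cyp7b1*, of oxysterol metabolism (0.02, adjusted p = 0.931), and the scavenger gene *Ackr1* (-0.42, adjusted p = 0.0884) did not pass.

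Of 7 markers of lymphoid tissue inducer cells tested, which start lymph node formation through lymphotoxin, 5 were higher and 0 lower (median 0.48). The list does not separate these cells from others, and the T cell markers rose as well (median 3.29). *Tnfsf11*, which encodes RANKL, had 2.11 (adjusted p = 0.0200), *Id2* 0.48 (adjusted p = 0.0234), and *Il1r1* 0.40 (adjusted p = 0.0359). *Kit*, the most abundant of the list in these DRGs, had -0.21 (adjusted p = 0.214). *Il22* was at 0 in all libraries, which allows up to 3 reads in each. *Il22*, an interleukin gene of these cells, was singled out after its values were seen.

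Markers listed for mature dendritic cells were higher for 5 of 9 tested, among them *Itgax* (3.14, adjusted p = 0.0139) and *Xcr1* (2.55, adjusted p = 0.0144). *Flt3* (0.15, adjusted p = 0.209) and *Zbtb46* (0.34, adjusted p = 0.0563) did not pass. The list does not separate mature from other dendritic cells, or these from macrophages. Naive and central memory T cell markers were higher for 4 of 7, with *Satb1* (0.54, adjusted p = 0.136) and *Lef1* (0.26, adjusted p = 0.425) not passing. Macrophage markers were higher for 8 of 10, with summed CPM of 127 to 171 in AAV5-*Gfp* and 262 to 469 in AAV5-*V1+V2*.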
